A study of Mus musculus with 6 samples.

Results

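Classical MHC class I molecules and the proteins that fill them with peptide were described here as a set of 10 genes, chosen by name: B2m, H2-K1, H2-D1, Tap1, Tap2, Tapbp, Psmb8, Psmb9, Psmb10 and Nlrc5. Each of the 10 symbols matched 1 row of the deposited count table, which holds 19616 genes, and all 10 were among the 15618 genes with enough counts to be tested. A class I molecule is a heavy chain (H2-K or H2-D in the mouse) held together with beta-2-microglobulin and a short peptide, and it is displayed on nearly every nucleated cell so that CD8 T cells can inspect the proteins made inside. The peptides are cut by the proteasome, in which 3 interferon-induced subunits can replace their constitutive counterparts to form the immunoproteasome, pumped into the endoplasmic reticulum by the TAP transporter, and loaded onto the heavy chain with the help of tapasin. In the intestine, class I molecules on epithelial cells face a dense population of CD8 intraepithelial lymphocytes.

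RNA was sequenced from jejunal intestinal epithelial cells (IEC), enriched from the tissue with EDTA, of 3 control and 3 Hdac1/2-deleted mice, all 3 months old, with 1 library per mouse. The control mice (C1, C3 and C3-3) are labelled wildtype. The Hdac1/2-deleted mice (H1, H5 and H9) are labelled villin-Cre Hdac1-/-; Hdac2-/-, and the villin promoter drives Cre in epithelial cells, so other cells in the preparation keep both genes. By the study's methods the mice came from a mixed C57BL/6J, 129SV and CD1 background, and the labels give no H2 haplotype. The comparison asks how the RNA of each class I gene differed between control and Hdac1/2-deleted IEC.

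The 6 libraries held between 36111035 and 65902344 counts. Hdac1 lay between 34.5 and 48.9 CPM (read counts brought to a common library size, with TMM scaling) in control mice and between 2.53 and 4.81 in Hdac1/2-deleted mice. Hdac2 lay between 23.6 and 32.9 CPM in control and between 21.4 and 26.6 in Hdac1/2-deleted mice, and the 2 groups overlapped, so its whole-gene count did not separate the labels. Its log2 fold change was -0.18, and 0.01 when libraries were scaled by their totals. The 11 epithelial markers examined, Epcam, Vil1 and Krt8 among them, were abundant in every library, with a sum of 17501 to 19561 CPM in control and of 14478 to 17667 in Hdac1/2-deleted mice. C3 was the only library with Y-linked transcripts above trace level (Eif2s3y at 26.6 CPM, at most 0.0675 in each other library) and with almost no Xist (0.234 CPM, 63.5 to 122 in the others), and it was also the highest control for 8 of the genes described here. Because these are bulk samples, fewer cells of a type and less RNA per cell cannot be told apart.

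Of the 10 genes, 4 were called lower in Hdac1/2-deleted IEC and 0 were called higher, where a call needed at least a 2-fold difference and an adjusted p of at most 0.05 (edgeR, quasi-likelihood test, p-values adjusted by Benjamini and Hochberg's method across the tested genes). The 4 were H2-K1, B2m, Tap2 and Tapbp. Of all 15618 genes tested, 1990 (12.7%) were called lower and 1944 (12.4%) higher. Without the 2-fold limit, 5 of the 10 passed in the lower direction, H2-D1 being the fifth, against 3168 genes or 20.3% of all tested. In the same 5 genes all 3 Hdac1/2-deleted mice lay below all 3 controls, which held for 4149 genes or 26.6% of all tested. The median log2 fold change was -0.82 over the 10 genes and -0.008 over all genes. Tap1, the 3 immunoproteasome subunits and Nlrc5 were not called. At an unadjusted p under 0.05, 6 were lower and 0 higher, against 24.8% and 24.7% of all genes tested, and DESeq2 called 4 lower and 0 higher, against 11.3% and 11.5% of the genes it tested. Without control mouse C3, or without Hdac1/2-deleted mouse H1, 2 of the 10 were called lower, H2-K1 and B2m, and with libraries scaled by their epithelial marker counts the same 2 were called.

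**Figure D1:**
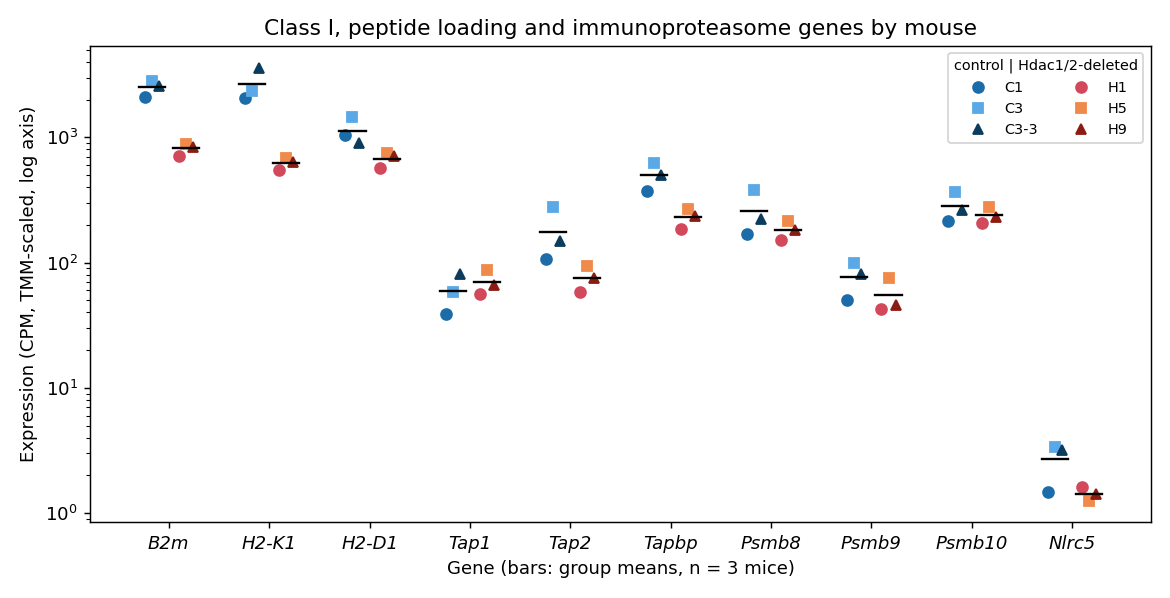
Expression of the 10 genes in each mouse (CPM, TMM-scaled, log axis), with blue symbols for control mice, red and orange symbols for Hdac1/2-deleted mice and horizontal bars for group means of 3 mice. B2m lies at 2110 CPM or above in every control and at 888 or below in every Hdac1/2-deleted mouse, H2-K1 is separated in the same way, and the points of Tap1, Psmb8, Psmb9, Psmb10 and Nlrc5 overlap.

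The light chain and the heavy chains gave the largest counts. B2m (ENSMUSG00000060802; chr2:122147686-122153083, plus strand, GRCm38), the light chain shared by all class I molecules, stood at 2110, 2817 and 2575 CPM in control mice C1, C3 and C3-3 and at 715, 888 and 845 CPM in Hdac1/2-deleted mice H1, H5 and H9. Every control was above every Hdac1/2-deleted mouse. The means were 2501 ± 359 CPM and 816 ± 89.8 CPM (SD, n = 3 each). B2m was therefore 3.06-fold lower, a log2 fold change of -1.62 with a standard error (SE) of 0.19 and an adjusted p of 0.00023 by edgeR. It was called lower in each of the 6 fits that left out 1 mouse, with log2 fold changes between -1.72 and -1.52.

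H2-K1 (ENSMUSG00000061232; chr17:33996017-34000347, minus strand), the heavy chain of the H2-K molecule, stood at 2068, 2360 and 3605 CPM in C1, C3 and C3-3 and at 546, 681 and 640 CPM in H1, H5 and H9. The groups were well apart, and the controls were more scattered, with C3-3 highest. The group means of 2678 ± 816 and 622 ± 69.2 CPM (SD, n = 3) corresponded to a 4.31-fold lower level (log2 fold change -2.11, SE 0.24, adjusted p = 0.00022 by edgeR), the largest decrease among the 10 genes. The call held in all 6 fits without 1 mouse, between -2.25 and -1.82.

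H2-D1 (ENSMUSG00000073411; chr17:35262730-35267499, plus strand), the heavy chain of H2-D, stood at 1043, 1445 and 897 CPM in C1, C3 and C3-3 and at 567, 752 and 706 CPM in H1, H5 and H9. The groups did not overlap, but the lowest control, C3-3, was close to the highest Hdac1/2-deleted mouse, H5. The means of 1128 ± 283 and 675 ± 96.3 CPM (SD, n = 3) gave a log2 fold change of -0.74 (SE 0.21, adjusted p = 0.022 by edgeR), which passes on adjusted p and is short of 2-fold. Fits without 1 mouse gave H2-D1 an adjusted p between 0.020 and 0.075. H2-K1 and H2-D1 are related genes of 1 family. How the authors assigned reads that match several H2 genes is not given in the sources used here. The split of reads between these 2 genes is therefore uncertain. The H2 haplotype of each mouse is not given either. For genes in the MHC, allele differences between mice cannot be told apart from differences in expression.

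Within each library the 2 heavy chains were compared with each other and with B2m, so that scaling between libraries does not enter. The ratio of H2-K1 to H2-D1, in counts per kb of exon, was 1.74, 1.43 and 3.53 in C1, C3 and C3-3 and 0.845, 0.795 and 0.795 in H1, H5 and H9. H2-K1 thus exceeded H2-D1 per length in each control and was below it in each Hdac1/2-deleted mouse. The difference in log2 ratio was -1.35 (SE 0.40) and the exact two-sided permutation p was 0.1, the smallest value that 3 mice against 3 can give, or 0.12 after Benjamini-Hochberg adjustment over the 6 ratios compared. The SD of the log2 ratio was 0.68 among controls and 0.05 among Hdac1/2-deleted mice. The summed heavy chain counts per kb stood to B2m as 0.452, 0.416 and 0.526 in the controls and as 0.487, 0.507 and 0.5 in the Hdac1/2-deleted mice. These ratios overlapped, and their log2 difference in plain counts was 0.07 (SE 0.11, exact permutation p = 0.7). Between -0.02 and 0.17 was obtained with 1 mouse left out.

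The promoter sequences of these 3 genes are shown because their RNA was lower together and because the class I promoter has a well-known layout. Its X and Y boxes are bound by the RFX, CREB/ATF and NF-Y factors and by the coactivator NLRC5. Upstream of them lie an enhancer with an NF-kB site and, in many class I genes, an interferon-stimulated response element (ISRE). RefSeq promoters (GRCm38.p6, 250 bases before to 50 after a start) matched 8 of the 10 genes. Both strands were searched for 4 motifs: CCAAT (the Y box), TGACG (the core of the X2 part of the X box), GAAANNGAAA (an ISRE) and GGGNNTTCCC (the NF-kB site). They occur in 37.4%, 20.8%, 3.44% and 1.75% of all 32851 promoters. The windows below run 5′ to 3′ along the coding strand and capitals mark matches to these motifs, ATTGG being CCAAT on the other strand.
B2m, chr2:122147534-122147643, plus strand: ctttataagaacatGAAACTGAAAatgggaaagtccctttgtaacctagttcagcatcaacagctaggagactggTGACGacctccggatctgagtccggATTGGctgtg
H2-K1, chr17:34000354-34000463, minus strand: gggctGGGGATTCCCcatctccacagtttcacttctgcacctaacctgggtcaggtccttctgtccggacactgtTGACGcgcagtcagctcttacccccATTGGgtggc
H2-D1, chr17:35262918-35263027, plus strand: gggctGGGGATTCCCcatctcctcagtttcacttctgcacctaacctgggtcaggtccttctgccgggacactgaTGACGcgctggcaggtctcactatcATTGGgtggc

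In all 3 windows TGACG was followed after exactly 20 bases by ATTGG, an arrangement found in 31 of the 32851 promoters (0.0944%), from 27 of 27025 genes. H2-M3, a nonclassical class I gene, was the only other H2 gene among them. The promoters of the 3 genes are among the 31, and the gap of 20 bases was taken from these same windows. The share is therefore no independent measure of how rare the arrangement is. The letters GGGNNTTCCC were found in H2-K1 and H2-D1 and GAAANNGAAA in B2m. Only these exact letters were searched, so variant NF-kB sites or ISREs would be missed. A window without a match may still hold such a site. Over the 110 bases shown, H2-K1 and H2-D1 were identical at 99 positions (90.0%), while B2m matched them at 41.8% and 40.9%. The 2 genes with nearly the same window had log2 fold changes of -2.11 and -0.74. A match is a description of the letters and no evidence of binding.

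The TAP transporter is a pair of subunits, and its 2 genes differed from each other. Tap2 (ENSMUSG00000024339; chr17:34203527-34216321, plus strand) stood at 106, 277 and 148 CPM in C1, C3 and C3-3 and at 58.6, 94.2 and 75.3 CPM in H1, H5 and H9. All controls were above all Hdac1/2-deleted mice, with C1 near the highest of them and C3 well above the rest. The means of 177 ± 88.8 and 76.1 ± 17.8 CPM (SD, n = 3) gave a log2 fold change of -1.22 (SE 0.36, adjusted p = 0.03 by edgeR). On the other strand, Gm15821 overlaps 14.1% of the exon length of Tap2 and Gm20496 overlaps 4.36%. The strand setting of the counting is not given in the sources used here. Tap2 was called lower in 3 of the 6 fits without 1 mouse. Without C3 its log2 fold change was -0.74 (adjusted p = 0.035), without H1 -1.06 (adjusted p = 0.096) and without H9 -1.21 (adjusted p = 0.088).

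Tap1 (ENSMUSG00000037321; chr17:34187553-34197225, plus strand) stood at 39.1, 58.5 and 81.2 CPM in C1, C3 and C3-3 and at 56.1, 88.1 and 66.5 CPM in H1, H5 and H9. The groups overlapped over most of their range. The log2 fold change was 0.24 (SE 0.27, adjusted p = 0.52 by edgeR) with a 95% confidence interval of -0.39 to 0.86, the only positive value among the 10 genes. Tap1 to Tap2, in counts per kb of exon, was 0.254, 0.146 and 0.378 in C1, C3 and C3-3 and 0.661, 0.646 and 0.609 in H1, H5 and H9. Every Hdac1/2-deleted mouse had the higher ratio. The log2 difference was 1.41 (SE 0.40, exact permutation p = 0.1, adjusted p = 0.12 over the 6 ratios), and leaving out 1 mouse gave 1.04 to 1.73. As with the heavy chains, the SD of the log2 ratio was larger among controls (0.69) than among Hdac1/2-deleted mice (0.06).

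Tapbp (ENSMUSG00000024308; chr17:33915899-33929292, plus strand) encodes tapasin, which bridges the transporter and the empty heavy chain. It stood at 373, 621 and 499 CPM in C1, C3 and C3-3 and at 187, 269 and 237 CPM in H1, H5 and H9. No Hdac1/2-deleted mouse reached the lowest control. The means of 497 ± 124 and 231 ± 41.5 CPM (SD, n = 3) gave a log2 fold change of -1.11 (SE 0.22, adjusted p = 0.0037 by edgeR). The adjusted p stayed at or below 0.017 in the 6 fits without 1 mouse, while the change was short of 2-fold without C3 (-0.91), without H1 (-0.97) and with libraries scaled by their totals (-0.91). The antisense gene Gm19412 overlaps 24.92% of the exon length of Tapbp, and it was at most 0.837 CPM in any library.

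Psmb8, Psmb9 and Psmb10 encode the catalytic subunits of the immunoproteasome. Psmb8 (ENSMUSG00000024338; chr17:34197721-34201454, plus strand) stood at 169, 379 and 222 CPM in C1, C3 and C3-3 and at 152, 215 and 183 CPM in H1, H5 and H9. Gm20496 on the other strand overlaps 14.73% of the exon length of Psmb8. Control C1 lay inside the range of the Hdac1/2-deleted mice. The log2 fold change was -0.49 (SE 0.29, 95% confidence interval -1.15 to 0.17, adjusted p = 0.21 by edgeR), and it was -0.09 (adjusted p = 0.77) without C3 and -0.71 (adjusted p = 0.049) without C1. Psmb9 (ENSMUSG00000096727; chr17:34181987-34187764, minus strand) stood at 49.9, 100 and 81.4 CPM in the controls and at 43.0, 74.9 and 46.1 CPM in the Hdac1/2-deleted mice. Here too C1 was between H1 and H5, and the log2 fold change was -0.50 (SE 0.30, 95% confidence interval -1.18 to 0.19, adjusted p = 0.22), or -0.26 without C3. Psmb10 (ENSMUSG00000031897; chr8:105935735-105938444, minus strand) stood at 213, 366 and 263 CPM in C1, C3 and C3-3 and at 206, 278 and 232 CPM in H1, H5 and H9. Its groups overlapped, with a log2 fold change of -0.23 (SE 0.21, 95% confidence interval -0.72 to 0.25, adjusted p = 0.42), and 0.01 without C3.

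Each of the 3 subunits takes the place of a constitutive one, Psmb8 that of Psmb5, Psmb9 that of Psmb6 and Psmb10 that of Psmb7. The constitutive subunits were higher in Hdac1/2-deleted IEC on adjusted p and short of 2-fold: the log2 fold changes were 0.49 for Psmb5 (adjusted p = 0.021), 0.42 for Psmb6 (adjusted p = 0.03) and 0.52 for Psmb7 (adjusted p = 0.011), and in each the 2 groups did not overlap. In the fits without 1 mouse the adjusted p lay between 0.016 and 0.067 for Psmb5, being above 0.05 in 4 of 6, between 0.039 and 0.084 for Psmb6, again above in 4 of 6, and between 0.015 and 0.05 for Psmb7. In counts per kb of exon, Psmb8 to Psmb5 was 0.757, 2.12 and 1.14 in C1, C3 and C3-3 and 0.594, 0.707 and 0.655 in H1, H5 and H9. Every control was higher, C1 only slightly so. Psmb9 to Psmb6 was 0.231, 0.421 and 0.352 in the controls and 0.15, 0.221 and 0.157 in the Hdac1/2-deleted mice, and Psmb10 to Psmb7 was 6.52, 10.2 and 8.58 against 4.17, 5.72 and 5.28. The log2 differences were -0.91 (SE 0.44), -0.91 (SE 0.31) and -0.73 (SE 0.23). Each exact permutation p was 0.1 and each adjusted p was 0.12 over the 6 ratios, the limit of this design, and with 1 mouse left out the differences stayed between -1.26 and -0.51.

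**Figure D2:**
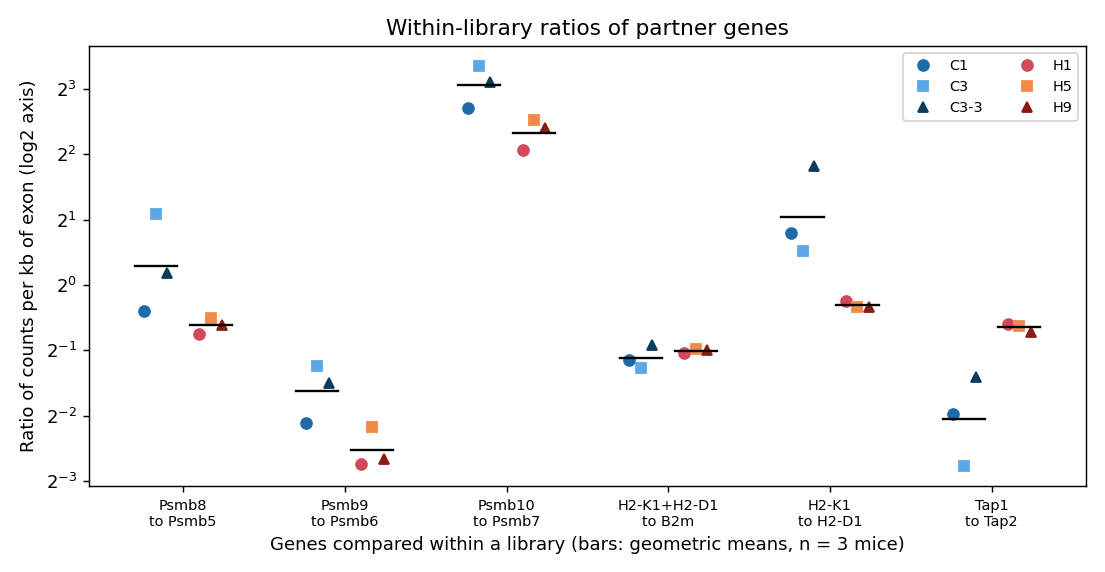
Ratios of partner genes within each library, in counts per kb of exon on a log2 axis, for control (C1, C3, C3-3) and Hdac1/2-deleted mice (H1, H5, H9), with bars at geometric means of 3 mice. In 5 of the 6 ratios the groups do not overlap: Tap1 to Tap2 is higher in the Hdac1/2-deleted mice and the other 4 are lower, while heavy chains to B2m overlap between 0.416 and 0.526.

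Psmb9 and Tap1 are read in opposite directions from neighbouring starts, and their annotated exons share 212 bases, which is 5.79% of the exon length of Psmb9 and 3.87% of that of Tap1. Psmb8 begins 495 bases beyond the end of Tap1, and Tap2 begins 2072 bases beyond the end of Psmb8, so the 4 genes form 1 cluster on chromosome 17. The RefSeq starts of Psmb9 and Tap1 are 226 bases apart. The bases between them are shown because they lie upstream of both RefSeq starts, with capitals marking the same motifs. By the wider gene positions given above, this stretch lies inside Psmb9.
Between the Psmb9 and Tap1 starts, chr17:34187331-34187555, plus strand (GRCm38.p6): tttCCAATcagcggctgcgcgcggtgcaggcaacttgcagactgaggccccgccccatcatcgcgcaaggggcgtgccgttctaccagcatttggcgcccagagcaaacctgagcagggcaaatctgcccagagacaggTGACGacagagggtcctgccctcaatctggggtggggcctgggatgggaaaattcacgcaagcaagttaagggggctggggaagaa

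This stretch held 1 CCAAT and 1 TGACG and no match to the ISRE or NF-kB letters. The ratio of Psmb9 to Tap1, chosen after the data had been seen, was 1.91, 2.57 and 1.5 in C1, C3 and C3-3 and 1.15, 1.27 and 1.04 in H1, H5 and H9, in counts per kb of exon. Every control was above every Hdac1/2-deleted mouse. The log2 difference, Hdac1/2-deleted minus control, was -0.76 (SE 0.24, exact permutation p = 0.1). Reads from the shared bases cannot be assigned to 1 of the 2 genes unless counting used the strand, and the strand setting is not given in the sources used here.

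Nlrc5 (ENSMUSG00000074151; chr8:94434356-94527272, plus strand) encodes the transactivator of class I genes. It had far fewer reads than the others, between 48 and 189 counts per library, while each other gene had at least 2587. Nlrc5 stood at 1.48, 3.40 and 3.20 CPM in C1, C3 and C3-3 and at 1.63, 1.26 and 1.41 CPM in H1, H5 and H9. Control C1 lay among the Hdac1/2-deleted mice and the other 2 controls lay above them. The log2 fold change was -0.90 (SE 0.37, 95% confidence interval -1.73 to -0.07, adjusted p = 0.079 by edgeR). Without C1 it was -1.19 with an adjusted p of 0.015, the only fit without 1 mouse in which it was called.

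Compared per length, the order of the 10 genes in control IEC was B2m, with a mean of 2908 CPM per kb of exon, then H2-K1 (911), H2-D1 (437), Psmb10 (165), Tapbp (137), Psmb8 (75.9), Tap2 (46.8), Psmb9 (21.1), Tap1 (10.9) and Nlrc5 (0.317). The ranges of Psmb10 and Tapbp, of Tapbp and Psmb8, of Psmb8 and Tap2 and of Psmb9 and Tap1 overlapped, so these neighbours were not separated beyond the spread between mice. In Hdac1/2-deleted IEC the order was the same except that H2-D1 (262) stood above H2-K1 (212), with overlapping ranges. Exon length here covers all annotated exons of a gene, merged over its transcripts, so the order also depends on the annotation. Psmb8 and Psmb10, for example, had control means of 257 and 281 CPM, with exon lengths of 3381 and 1705 bases. The log2 CPM values varied more among controls than among Hdac1/2-deleted mice for 10 of 10 genes, with a median SD of 0.47 against 0.24. Over all genes tested the control SD was the larger in 48.5%.

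**Figure D3:**
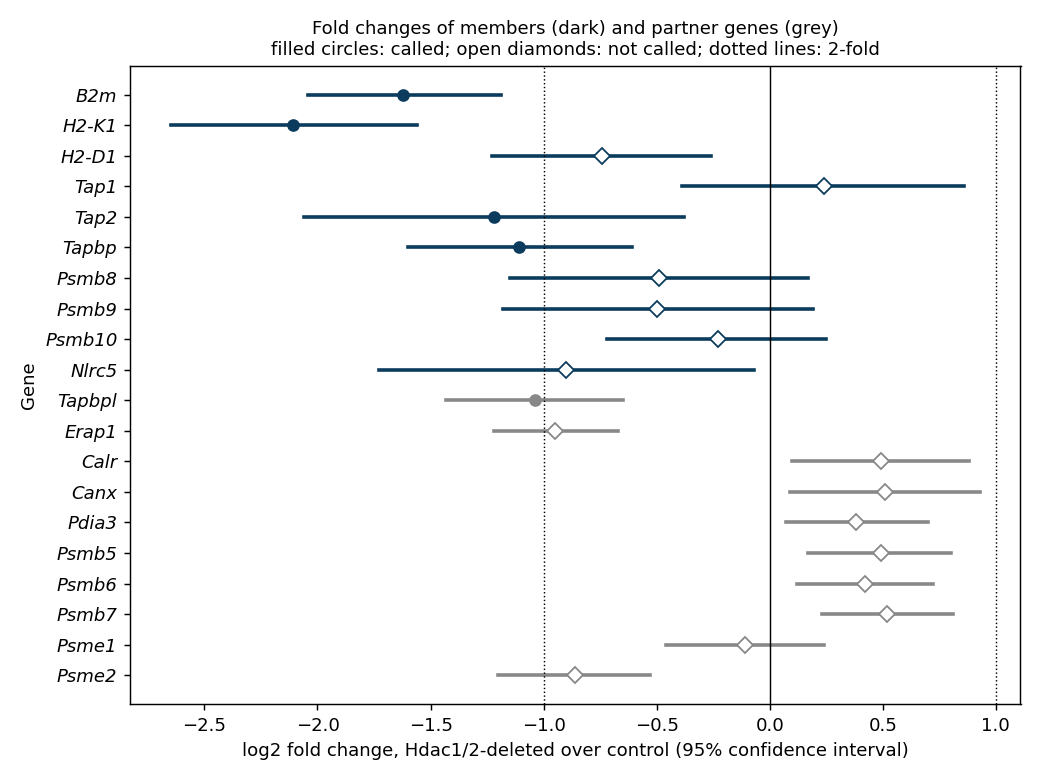
Log2 fold changes (Hdac1/2-deleted over control) with 95% confidence intervals for the 10 genes in dark blue and for partner genes in grey. Filled circles are called genes and open diamonds are not; H2-K1 at -2.11 and B2m at -1.62 lie farthest to the left, while Calr, Canx, Pdia3, Psmb5, Psmb6 and Psmb7 lie to the right of 0.

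The partner genes of the pathway were mostly not called. Of 14 genes for peptide supply, trimming and chaperones, 1 was called lower and 2 higher, with a median log2 fold change of 0.45. Over all genes tested 12.7% were called lower and 12.4% higher. At adjusted p alone 2 of the 14 were lower and 6 higher, against 20.3% and 20.5% of all tested. All 3 Hdac1/2-deleted mice lay above all controls in 9 and below them in 2, against 26.7% and 26.6% of all tested. The gene called lower was Tapbpl (-1.04, adjusted p = 0.0015), which encodes the tapasin-related peptide editor TAPBPR; it was not called without C3, without H9, with library totals or with epithelial marker scaling. Those called higher were Thop1 (1.50) and Blmh (1.04), cytosolic peptidases, and 1 gene of the list was called higher without C1 or without H5. The general chaperones Calr (0.49, adjusted p = 0.05), Pdia3 (0.38, adjusted p = 0.053) and Canx (0.51, adjusted p = 0.056), which hold the heavy chain while it folds, had positive values short of the call. Erap1, the aminopeptidase that trims class I peptides in the endoplasmic reticulum and singled out here after its values were seen, stood at 108, 121 and 112 CPM in C1, C3 and C3-3 and at 58.2, 59.1 and 59.4 CPM in H1, H5 and H9. Its groups were far apart relative to their spread, with a log2 fold change of -0.95 (SE 0.12, adjusted p = 0.0004 by edgeR), just short of 2-fold. Of 19 constitutive 20S proteasome subunits and assembly factors, 0 were called in either direction by edgeR or by DESeq2 (2 were called higher without C1, without H9, under library totals or with epithelial marker scaling), with a median of 0.30, and 13 were higher in all 3 Hdac1/2-deleted mice than in any control, as were 26.7% of all genes tested. At adjusted p alone 6 of the 19 were higher, against 20.5% of all tested, and 0 lower, and at an unadjusted p under 0.05, 9 were higher and 1 lower. Of the 3 PA28 activator genes 0 were called by edgeR or DESeq2, with a median of -0.11, or 0.08 under library totals, and 1 was lower at an unadjusted p under 0.05. Psme2 was lower on adjusted p (-0.86, adjusted p = 0.0019) while Psme1, its partner in the same ring, stood at -0.11 (adjusted p = 0.6).

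Among 12 factors that bind class I promoters, 2 were called lower and 0 higher, with a median of -0.52. Over all genes tested 12.7% were called lower and 12.4% higher. At adjusted p alone 7 of the 12 were lower and 1 higher, against 20.3% and 20.5% of all tested. Under library totals or epithelial marker scaling 1 of the 12 was called lower, with medians of -0.33 and -0.34. The 2 called lower in the main fit encode subunits of the RFX complex: Rfxank (-1.44, SE 0.27, adjusted p = 0.003) and Rfxap (-1.14, SE 0.23, adjusted p = 0.0042). Exons of Rfxank overlap those of Nr2c2ap on the other strand over 33.8% of their length, so its count is uncertain. Irf1, an interferon-induced activator of class I genes, stood at 205, 273 and 202 CPM in C1, C3 and C3-3 and at 131, 162 and 95.2 CPM in H1, H5 and H9, with a log2 fold change of -0.81 (adjusted p = 0.015), short of 2-fold. Of 9 genes of interferon-gamma receptor signalling, 1 was called lower, Irf9 (-1.23, adjusted p = 0.00021), against 12.7% of all genes tested. Ifngr2, a receptor chain, was at -0.82 (adjusted p = 0.0037). The median of the 9 was -0.18, and 0.01 with libraries scaled by their totals.

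Interferon-gamma-induced GTPases and chemokines, listed together with Ido1 and Cd274, which are neither, went both ways. Of the 21 tested genes of this list, 7 were called lower and 2 higher, against 12.7% and 12.4% of all genes tested. Their median was -0.41. Those lower were Cxcl11 (-3.79), Ido1 (-3.30), Gbp6 (-2.46), Cd274 (-2.28), Gbp10 (-1.86), Ifi47 (-1.81) and Gm12250 (-1.68), and those higher were Tgtp1 (1.91) and Cxcl10 (1.60). Ido1, a tryptophan-degrading enzyme, had the smallest adjusted p of them at 5.1e-05. Gbp6 and Gbp10 share exon sequence with neighbouring genes and were below 2 CPM in every library. Cxcl11 had 48, 2 and 9 counts in H1, H5 and H9, and Gm2673 on the other strand overlaps 41.7% of its exon length. Cd274 had 59, 9 and 39 counts in H1, H5 and H9. Both genes called higher were low too, Tgtp1 between 0.287 and 2.4 CPM and Cxcl10 between 0.302 and 2.23 CPM over all libraries. The count called lower was 4 without H9, and 3 of 16 when at least 10 counts were required in every sample. The count called higher was 0 without H1 and 1 without C1, without C3 or without H5.

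Other MHC genes were lower too. Of 8 class II genes with Ciita, 7 were called lower with a median of -4.37. Of 16 tested nonclassical class I heavy chains, 8 were called lower with a median of -1.70. Over all genes tested 12.7% were called lower. H2-DMb2, the class II gene not called, was at 0.77 and at most 0.486 CPM. The class II count was 5 without H1 and 6 without C1 or without H5, and the median was -3.2 without C3-3. The nonclassical count was 7 without H1, without H5 or without H9, and 9 without C3-3. The 8 nonclassical genes in the main fit were H2-Q1, H2-Q2, H2-Q4, H2-T3, H2-T10, H2-T22, H2-T23 and H2-M3. Their proteins, like the classical heavy chains, pair with beta-2-microglobulin. Between Tapbp and H2-D1 on chromosome 17 (chr17:33915899-35267499), 98 genes were tested. Leaving out the genes described here and all other H2 genes, 10 of 80 were called lower (12.5%) and 17 higher (21.2%), against 12.7% and 12.4% of all genes.

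EDTA-enriched IEC can carry lymphocytes with them, and these also express class I genes. The 21 markers of T cells and intraepithelial lymphocytes summed to 207, 791 and 655 CPM in C1, C3 and C3-3 and to 116, 241 and 230 CPM in H1, H5 and H9. C3 and C3-3 were high, and C1 lay inside the range of the Hdac1/2-deleted mice. Of the 21, 3 were called lower (Cd3g, Cd8a and Klrd1) and 1 higher (Cd4), against 12.7% and 12.4% of all genes tested. The median log2 fold change of the 21 was -1.25. The number called lower was 16 without C1, 1 without C3, without C3-3 or without H1, and 10 by DESeq2. None of the 21 was at 0 counts in any library. Cd3e, a chain of the T cell receptor complex, stood at 6.66, 23.5 and 20.1 CPM in the controls and at 4.0, 8.48 and 8.75 CPM in the Hdac1/2-deleted mice. In C1, with a marker sum between those of H1 and H5, B2m was at 2110 and H2-K1 at 2068 CPM, above every Hdac1/2-deleted mouse. The same held for H2-D1, Tap2 and Tapbp. In these genes every control lay above every Hdac1/2-deleted mouse, so this place of C1 follows from the separation already described. Psmb8, Psmb9, Psmb10 and Nlrc5 in C1 lay inside the range of the Hdac1/2-deleted mice. Tap1 in C1, at 39.1 CPM, lay below every Hdac1/2-deleted mouse, the lowest being H1 at 56.1 CPM. C1 is a single library, and the part of lymphocytes in the values of the 10 genes was not tested.

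**Figure D4:**
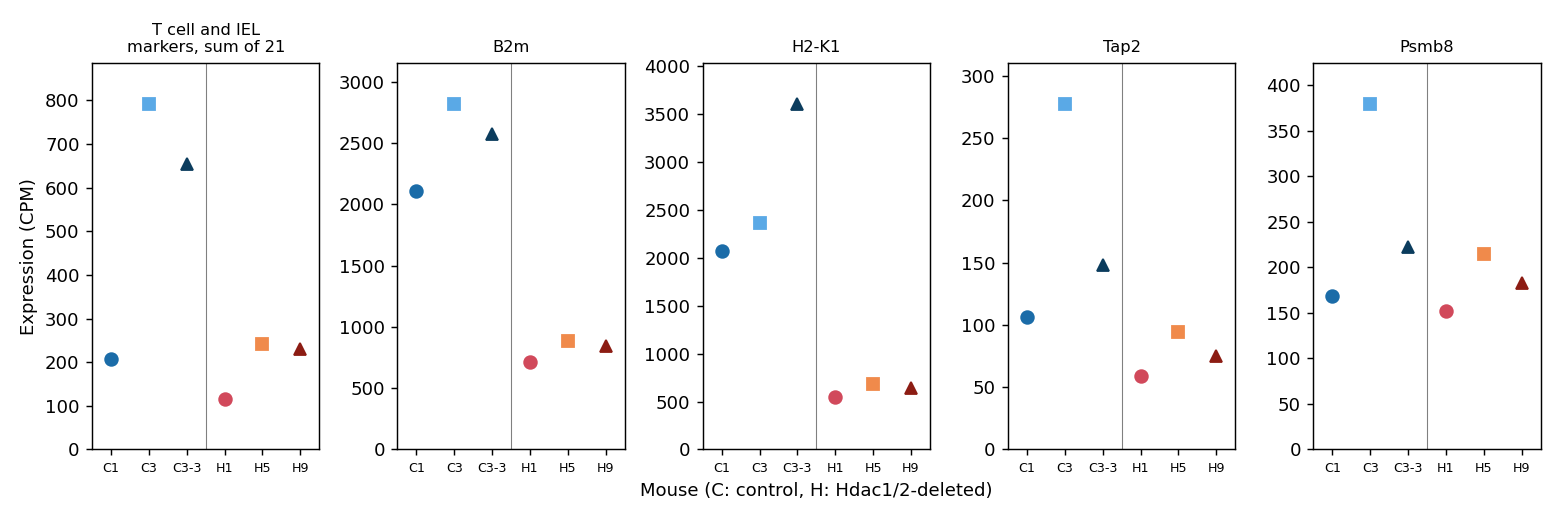
Summed CPM of 21 T cell and intraepithelial lymphocyte markers (left) and CPM of B2m, H2-K1, Tap2 and Psmb8 in each mouse, each panel on its own axis from 0, with controls left of the vertical line and Hdac1/2-deleted mice right of it. Control C1 has a marker sum of 207, within the 116 to 241 of the Hdac1/2-deleted mice. Its B2m, H2-K1 and Tap2, like those of the other controls, lie above every Hdac1/2-deleted mouse, and its Psmb8 lies within their range.

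Markers of other cells did not follow 1 direction. For comparison, 12.7% of all genes tested were called lower and 12.4% higher. Of 5 tested B and plasma cell markers 1 was called higher (Cd79b, 4.84), with a median of -0.13, or 0.04 under library totals, and sums of 6.91 to 63.6 CPM in control and 44.4 to 62.5 in Hdac1/2-deleted mice. Of 13 tested myeloid and dendritic cell markers 1 was called lower (Cd14) and 3 higher (Csf1r, C1qa and C1qb), with a median of 0.76, or 0.09 without H9, and sums of 91.8 to 98.3 CPM in control and 46.5 to 75.8 in Hdac1/2-deleted mice. Without Cd14 those sums were 23.9 to 48.4 and 32.6 to 64.9 CPM, and without mouse C1 3 of the 13 were called lower. Of 9 tested stromal and endothelial markers 2 were called lower (Acta2 and Dcn) and 1 higher (Pdgfrb), with a median of -0.30 and sums of 7.23 to 29.9 and 14.6 to 24.3 CPM. Of the 11 epithelial markers 1 was called higher (Krt18, 1.02), with a median of 0.02. Without C3, without C3-3 or without H9, 1 myeloid marker was called higher, without C1, H1 or H5, 1 stromal marker was called lower, and without C3 or H5, 0 epithelial markers were called. The part of these cells in the class I values was not tested.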

How the data were processed

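Jejunal IEC RNA of 3 control and 3 Hdac1/2-deleted mice was sequenced from poly(A)-selected, directional libraries. The authors aligned the reads with STAR (version 2.4.0f1 per the labels) and deposited 1 table with raw counts for 19616 genes. The labels name mm9 and the study's methods GRCm38; the counting program and strand setting are not given in the sources used here. The deposited table also holds a score for each sample (the authors rescaled the counts with 1 factor per sample and rounded them), and the authors' own log2 fold changes and p-values; none of these was used.

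Counts were filtered (filterByExpr, 15618 genes), normalized by TMM (factors 0.892 to 1.136) and tested with the robust quasi-likelihood test of edgeR 4.0.16 in R 4.3.3 (prior count 0.125, no covariates), with Benjamini-Hochberg adjustment over all tested genes. The fit was tested on simulated data. Ratios within a library were compared by exact two-sided permutation tests (scipy 1.17.1). Gene positions and exon lengths are from GENCODE M21 (GRCm38), matched by Ensembl ID, and promoters are from RefSeq. Exon lengths merge all annotated exons of a gene, so a level or ratio per kb also depends on the annotation. A count of 3 corresponds to 0.0405 to 0.079 CPM, counting error only. DESeq2 1.42.0, other scalings, filters and prior counts, and leaving out each mouse were alternatives. The genes named are the 10 class I genes, Hdac1 and Hdac2, every gene used in a ratio and, of 14 lists, the called members and up to 4 with the highest CPM; others are said to be chosen after their values were seen. The 10 genes, lists and tests were chosen with earlier results of these data known.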

Additional observations from a re-analysis of the deposited data

How the results depend on the processing

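B2m and H2-K1 were called lower under all 8 other settings of scaling, test, filter and prior count and in all 6 fits without 1 mouse, while Tap2 was called in 7 of the 8 and Tapbp in 6. The count of class I genes called lower was 2 of 10 with epithelial marker counts as library size, where Tap2 had a log2 fold change of -1.06 (adjusted p = 0.056 by edgeR) and Tapbp of -0.94, and between 2 and 5 in the fits without 1 mouse, 2 being without C3 or without H1. Scaling by library totals moved the median log2 fold change of all genes from -0.008 to 0.18 and the share of called genes that were lower from 50.6% (1990 lower, 1944 higher) to 38.4% (1538 lower, 2463 higher). Without the 2-fold limit 3168 genes were called lower and 3198 higher. The causes were not tested. No paired analysis was possible because the mouse names share no numbering between the groups apart from 1. Nlrc5 had the lowest counts of the 10 genes, 48 to 189 per library, and with 3 mice a group the exact tests of the ratios cannot go below p = 0.1.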

Other observations

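The 10 class I genes took 0.62% to 0.767% of all counts in control libraries and 0.287% to 0.351% in Hdac1/2-deleted libraries.

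Scatter among controls was also seen in other H2 genes, here chosen after their values were seen. H2-T23, the heavy chain of Qa-1, stood at 263, 115 and 460 CPM in C1, C3 and C3-3 and at 21.5, 18.8 and 20.4 CPM in H1, H5 and H9. H2-K2 stood at 24.1, 83.4 and 9.09 CPM in the controls and at 11.0, 9.48 and 9.88 CPM in the Hdac1/2-deleted mice, so that C3-3 had the lowest value of all 6. H2-Q4 stood at 29.7, 28.5 and 101 CPM in the controls and at 13.2, 14.7 and 15.0 CPM in the Hdac1/2-deleted mice. The order of C1, C3 and C3-3 thus differed from gene to gene. The H2 haplotype of each mouse is not given, and its part in this scatter was not tested. Over the class II and nonclassical class I genes tested, the SD of log2 CPM (pseudocount 0.1) was larger in controls for 21 of 24, with medians of 0.80 in controls and 0.36 in Hdac1/2-deleted mice.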
